A study of Danio rerio with 6 samples.

Results

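The genes described here encode the core proteins of the mechanotransduction channel complex of hair cells. They are tmc1, tmc2a, tmc2b, tmie, lhfpl5a, lhfpl5b, cib2 and CIB3, chosen by symbol, and all 8 were found once among the 31701 Ensembl genes that have a value in every sample. The samples are GFP-positive hair cells and GFP-negative non-sensory surrounding cells (nsSCs), taken from utricle, saccule and lagena of adult female zebrafish between 11 and 13 months old. All fish carried the transgene Tg(pou4f3:GAP-GFP)s273t, in which the promoter of the hair cell gene pou4f3 drives a membrane-bound GFP, and no treatment is named for either group. Each cell type has 3 samples of 1000 cells picked one by one with a suction pipette and pooled over several fish, and both cell types came from the same set of fish. Expression is given as RPKM, a read density scaled by transcript length and by the mapped reads of the sample. Levels of different genes can thus be set side by side per length. The cDNA was amplified before sequencing. The part of amplification, and of the transcript lengths used, in ratios between genes was not tested.

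At the tips of stereocilia, tension in the tip link opens a cation channel. Tmc1 and Tmc2 form its pore, Tmie and Lhfpl5 are membrane proteins that bind Tmc proteins or the tip link protein Pcdh15, and Cib2 and Cib3 are small calcium-binding proteins that attach to the cytoplasmic side of Tmc. Zebrafish have a pair of tmc2 genes and a pair of lhfpl5 genes. In this species lhfpl5a is known to serve the hair cells of the ear and lhfpl5b those of the lateral line, the row of sense organs in the skin. Loss of Tmie, Lhfpl5, Cib2 or Tmc1 causes deafness in mice.

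The RPKM of a sample summed to 704199 to 713194 in hair cells and to 976739 to 1012812 in nsSCs. Mitochondrially encoded entries took 14.9% to 15.8% of that sum in hair cells and 52.5% to 53.9% in nsSCs. Of 15 hair cell markers, 14 were called higher in hair cells, beside 31% of all tested genes. pou4f3, whose promoter drives the GFP used for picking, is among the 15. The study itself lists others of the 15 as enriched in these hair cells, among them s100s, s100t, cabp2b and chrna9. This check is thus not independent of the collection or of these data. The 15 summed to 56100.0 to 57457 RPKM in hair cells and 221 to 226 RPKM in nsSCs. The nsSCs carried markers of several other cell types. All genes tested for connective tissue (6), leukocytes (6), red blood cells (6) and endothelium (6) were called higher in nsSCs, beside 35.4% of all tested genes. Of 10 supporting cell and epithelial genes 4 were higher in nsSCs, namely krt18, krt4, epcam and krt8. The 3 higher in hair cells were stm, sox2 and otog, and the 3 not called were krt5, fabp7a and agr2. Of 6 glia genes 5 were higher in nsSCs and 1 was not called, and of 8 neuron genes 4 were higher in nsSCs, 1 in hair cells and 3 were not called. Red blood cell genes summed to 20386 to 24183 RPKM in nsSCs and 937 to 1012 RPKM in hair cells, glia genes to 4992 to 5179.5 and 187 to 197 RPKM, connective tissue genes to 572 to 601 and 15.6 to 18.4 RPKM, and leukocyte genes to 491 to 536 and 9.49 to 11.3 RPKM. Of the endothelial genes, 4 were listed at 0 in all hair cell samples. In such pooled samples, fewer cells of a type and less RNA per cell cannot be told apart.

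All 8 genes of the complex were higher in hair cells, and in each of the 8 every hair cell sample lay above every nsSC sample. tmc2a was by far the most abundant, followed by CIB3, cib2 and lhfpl5a, while tmc2b, tmie and tmc1 formed a lower tier and lhfpl5b was the lowest, at 0.71 to 1.23 RPKM. Over all 22374 genes tested, 31% were called higher in hair cells, 66.4% were called in either direction, and 42.5% had every hair cell sample above every nsSC sample. The calls require 2-fold or more on log2(RPKM + 0.1) together with an adjusted p below 0.05, and on this scale the change of weakly expressed genes is understated. The median log2 fold change was 7.48 over the 8 genes and 0 over all tested genes. Hair cells were picked by GFP and by a visible stereocilia bundle, the place where these proteins work, so that their direction is not independent of the collection. tmc1, tmc2a, tmc2b and lhfpl5a are also among the genes the study measured by qPCR on further fish, and those measurements are not used here. The study itself also lists tmc2a as enriched in these hair cells, and refers to in situ hybridization in earlier work.

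**Figure D1:**
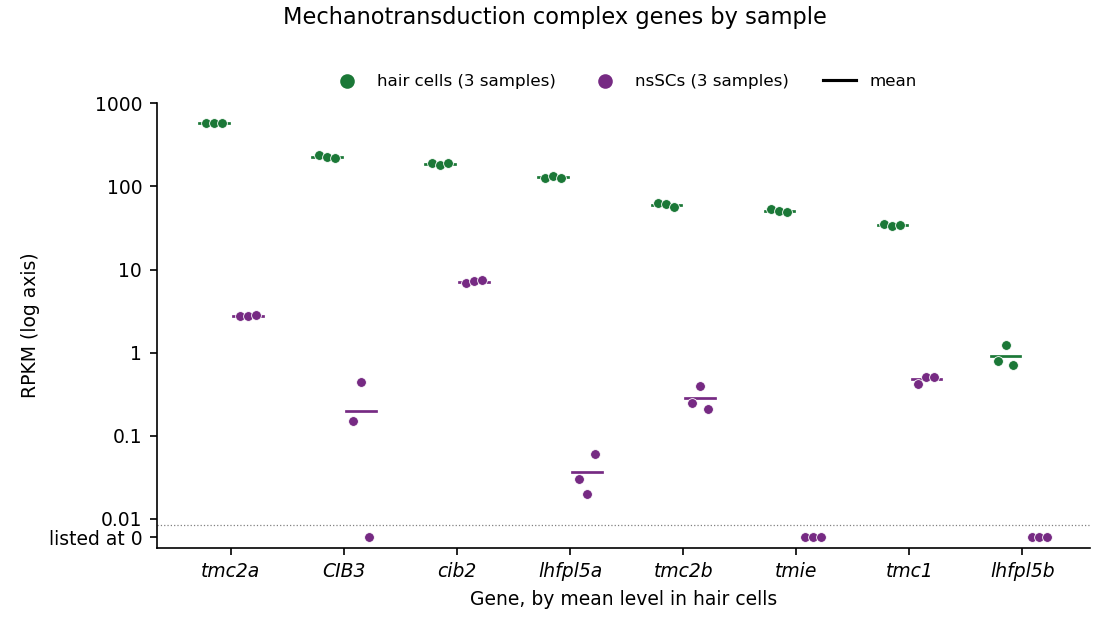
RPKM of the 8 genes (log axis) in each of 3 hair cell samples (green) and 3 nsSC samples (purple), with the mean as a line and values of 0 below the dotted line. No gene overlaps between the cell types, and tmie and lhfpl5b are listed at 0 in all 3 nsSC samples.

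Among the pore genes, tmc2a (ENSDARG00000033104) had 576.08, 577.51 and 583.03 RPKM in replicates 1, 2 and 3 of the hair cells. The matching nsSC values were 2.74, 2.74 and 2.80 RPKM. The replicates lay close together in both cell types, with a coefficient of variation in hair cells of 0.634%. For the 6294 genes with a hair cell mean above 10 RPKM the median was 5.19%, and 1.16% of these genes varied no more than tmc2a. Its mean of 579 ± 3.67 RPKM (SD, n = 3) gave it rank 138 among all genes in hair cells. The log2 fold change was 7.66 (standard error 0.041, adjusted p = 3.3e-10 by limma).

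The paralog tmc2b (ENSDARG00000030311) was far lower than tmc2a, at 62.38, 60.62 and 55.70 RPKM in hair cells. The nsSC samples had 0.25, 0.40 and 0.21 RPKM. tmc2b was thus higher by 7.30 on the log2 scale (standard error 0.18, adjusted p = 5.4e-08 by limma). tmc1 (ENSDARG00000056386), whose mammalian counterpart is the Tmc gene of mature cochlear hair cells, was the lowest of the pore genes, at 34.95, 33.66 and 34.29 RPKM in hair cells. Its nsSC values were 0.42, 0.51 and 0.51 RPKM, and the difference was 5.89 on the log2 scale (standard error 0.11, adjusted p = 1.4e-08 by limma). tmc2b and tmc1 ranked 1689 and 2712 among all genes in hair cells.

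The division of the summed signal among tmc1, tmc2a and tmc2b was nearly the same in every hair cell sample. The other TMC genes, described below, are outside this sum. tmc2a made up 85.5%, 86.0% and 86.6% of the summed RPKM of tmc1, tmc2a and tmc2b. tmc2b made up 8.85% ± 0.515 and tmc1 5.10% ± 0.0898 (SD, n = 3). tmc2a was thus 9.74 ± 0.644 times tmc2b and 16.9 ± 0.353 times tmc1, and tmc2b was 1.74 ± 0.0976 times tmc1 (SD, n = 3). These shares are unaffected by the scaling of a sample, since all genes of a sample are scaled alike. The summed RPKM of the 3 genes was 673 ± 0.846 in hair cells and 3.53 ± 0.12 in nsSCs (SD, n = 3).

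The small summed signal of tmc1, tmc2a and tmc2b in nsSCs held relatively more tmc1 and less tmc2a. tmc6b, outside this sum, was higher in nsSCs than the sum, at 14.5 ± 1.89 RPKM (SD, n = 3). tmc1 took 12.3%, 14.0% and 14.5% of the summed signal in nsSC replicates 1, 2 and 3, above all 3 hair cell samples. tmc2a took 80.4%, 75.1% and 79.5%, below all 3 hair cell samples, and the share of tmc2b overlapped between the cell types. The exact two-sided permutation test gave p = 0.1 for tmc1 and for tmc2a, the smallest that 3 samples against 3 allow, and p = 0.7 for tmc2b, or 0.117 and 0.7 when adjusted over the 14 shares and ratios tested. These shares add up to a whole and are not independent of each other. In the RefSeq annotation used below, tmc1 overlaps zfand5a, at 28.24 to 30.37 RPKM in nsSCs, while tmc2a and tmc2b overlap no other gene. The part of this overlap in the shares was not tested.

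**Figure D2:**
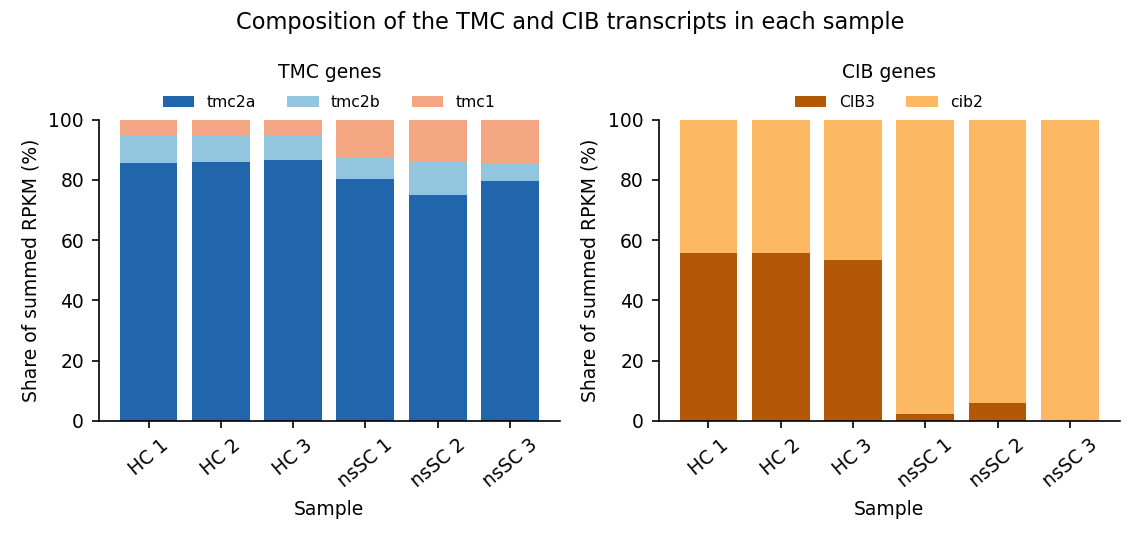
Share in percent of each gene in the summed RPKM of tmc1, tmc2a and tmc2b (left) and of cib2 and CIB3 (right) in every sample. Other TMC genes and cib1 are not in these sums. tmc2a holds 85.5% to 86.6% of the left sum in hair cells. CIB3 holds a mean of 55.0% of the right sum in hair cells and at most 5.87% in nsSCs.

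The genes for the calcium-binding partners of Tmc were the most abundant after tmc2a. CIB3 (ENSDARG00000091072) was at 238.96, 222.96 and 221.43 RPKM in hair cells. It had 0.15 RPKM in nsSC replicate 1, 0.45 RPKM in replicate 2 and was listed at 0 in replicate 3. The nsSC values thus spread widely relative to their mean, and the log2 fold change of 9.89 had the largest standard error of the 8 genes (0.55, adjusted p = 2.6e-06 by limma). cib2 (ENSDARG00000102820) reached 188.98, 178.30 and 192.25 RPKM in hair cells. In nsSCs it was at 6.83, 7.22 and 7.47 RPKM, higher there than any other gene of the complex. Its log2 fold change of 4.68 was small beside that of CIB3 but precise (standard error 0.057, adjusted p = 4.1e-09 by limma).

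CIB3 exceeded cib2 in hair cells in each of the 3 samples, by 1.26, 1.25 and 1.15 times. In nsSCs the order was turned round, with CIB3 at 0.022, 0.0623 and 0 times cib2. CIB3 made up 55.0% ± 1.26 of the summed RPKM of the pair in hair cells and 2.67% ± 2.97 in nsSCs (SD, n = 3, exact two-sided permutation p = 0.1, the smallest possible).

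The lhfpl5 pair, which encodes membrane proteins that link the tip link to the channel, was divided almost wholly toward lhfpl5a. lhfpl5a (ENSDARG00000045023) was at 126.49, 133.95 and 126.71 RPKM in hair cells. The nsSC samples had 0.03, 0.02 and 0.06 RPKM, and the log2 fold change was 9.89 (standard error 0.13, adjusted p = 5.1e-09 by limma). lhfpl5b (ENSDARG00000056458) had 0.79, 1.23 and 0.71 RPKM in hair cells and was listed at 0 in all 3 nsSC samples, so that no fold is given. It was called higher in hair cells on log2(RPKM + 0.1) (adjusted p = 7.2e-06 by limma), but with a pseudocount of 1 RPKM its change of 0.92 on the log2 scale fell short of 2-fold. lhfpl5a exceeded it by 160.1, 109 and 178 times in hair cell replicates 1, 2 and 3, and lhfpl5b made up 0.696% ± 0.188 of the pair (SD, n = 3).

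tmie (ENSDARG00000069423), whose product in zebrafish is needed for Tmc proteins to reach the bundle, was at 53.82, 50.18 and 49.22 RPKM in hair cells. All 3 nsSC samples list it at 0, so that no fold is given (adjusted p = 4.1e-09 by limma). Of the genes of the complex, tmie and lhfpl5b alone had no value above 0 in nsSCs. With the values rounded to 2 decimals and no counts in the table, the level below which a gene is listed at 0 is unknown.

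In hair cells the order of the 8 genes was tmc2a, CIB3, cib2, lhfpl5a, tmc2b, tmie, tmc1 and lhfpl5b, and none of the 7 neighbouring pairs overlapped between samples. The closest neighbours were tmc2b and tmie, at 55.70 to 62.38 RPKM against 49.22 to 53.82 RPKM, and CIB3 and cib2. Each pair gave p = 0.1 in the exact two-sided permutation test over samples, the smallest possible, and 0.1 when adjusted over the 7 pairs. No step of the order thus reached a p under 0.05. Both genes of a pair were measured in the same 3 samples, and the test treated their values as independent. These p-values therefore decide nothing about the order. In nsSCs the order was cib2, tmc2a, tmc1, tmc2b, CIB3 and lhfpl5a, and there CIB3 overlapped with tmc1, with tmc2b and with lhfpl5a.

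By family, the RPKM of tmc1, tmc2a and tmc2b were added to a TMC sum. In hair cells this sum was 5.18 ± 0.183 times that of the lhfpl5 genes (SD, n = 3). It was 1.62 ± 0.0503 times that of cib2 and CIB3, and 13.2 ± 0.605 times tmie (SD, n = 3). The lhfpl5 genes in turn summed to 2.55 ± 0.168 times tmie. In nsSCs the TMC sum was 0.489, 0.476 and 0.471 times the sum of cib2 and CIB3. These values lay below the 1.57 to 1.67 times of hair cells (exact two-sided permutation p = 0.1, the smallest possible). The 8 genes together were at 1268 ± 12.7 RPKM in hair cells against 10.9 ± 0.47 RPKM in nsSCs (SD, n = 3).

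The level of a gene in nsSCs, as a percent of its level in hair cells, was compared with that of the hair cell markers. As stated above, the list of markers is not independent of these data. 13 of the 15 markers were below 1%, with a median of 0.481% over the 15. tmc2a and tmc2b lay in the middle of these, at 0.477% and 0.481%, next to the otoferlin gene otofb of synaptic exocytosis at 0.481%. The following markers were cabp2b at 0.501% above, and s100s at 0.41% and pou4f3 at 0.388% below. lhfpl5a at 0.0284% lay lower, between the acetylcholine receptor gene chrna9 at 0.00183% and the vesicular glutamate transporter gene slc17a8 at 0.0649%. CIB3 at 0.0878% lay between slc17a8 and the transcription factor gene gfi1aa at 0.107%, but this place was not stable, since it was at 0.0329% without nsSC replicate 2 and at 0.132% without replicate 3, a check added after the values were seen. tmc1 at 1.40% and cib2 at 3.85% were above 13 of the markers and below only atoh1a, at 5.76%, and calb2a, at 77.5% and not called. The part that hair cell RNA in the nsSC samples plays in these values was not tested. Among the 6929 genes called higher in hair cells, the median was 16.2%, and 27.2% of them were below cib2.

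**Figure D3:**
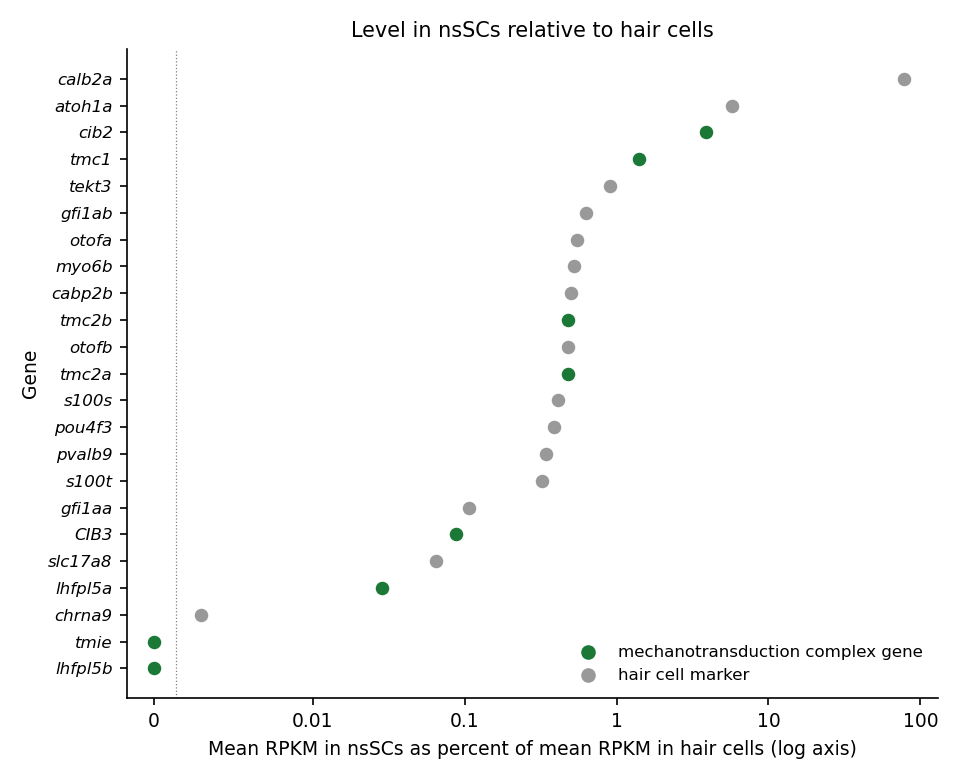
Mean RPKM in nsSCs as a percent of the mean in hair cells (log axis) for the 8 genes of the complex (green) and 15 hair cell markers (grey), with genes listed at 0 in nsSCs left of the dotted line. tmc2a and tmc2b sit among the markers near 0.48%, lhfpl5a and CIB3 below 0.1%, and tmc1 and cib2 above 1%.

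The relatives of these genes outside the complex mostly did not share their pattern. Of 4 other TMC genes tested, 1 was called higher in hair cells and 2 in nsSCs, beside 31% and 35.4% of all tested genes. The gene higher in hair cells was tmc5, listed in the table as si:dkey-202l16.5 and identified by its Ensembl identifier, at 168.98, 177.41 and 171.33 RPKM in hair cells. Its nsSC values were 1.09, 1.69 and 1.32 RPKM, and it was higher by 6.90 on the log2 scale (standard error 0.14, adjusted p = 2.4e-08 by limma). In level it lay below tmc2a and above tmc2b and tmc1 in each hair cell sample. In the other direction, tmc6b was at 0.0967 ± 0.0404 RPKM in hair cells against 14.5 ± 1.89 RPKM in nsSCs (SD, n = 3). tmc8, whose human counterpart with TMC6 is mutated in a skin disorder, was at 0.0467 ± 0.0115 and 1.13 ± 0.236 RPKM. tmc4 was listed at 0 in hair cells and was at 0.23, 0.04 and 0.06 RPKM in nsSCs, and it was not called. It was called higher in nsSCs with median-ratio scaling, with mitochondrial genes out, with a pseudocount of 0.01 RPKM, and without nsSC replicate 2 (log2 fold change -1.20) or 3 (-1.10). TMC3 and tmc6a were too low to be tested.

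Of 5 other LHFPL genes tested, none was called higher in hair cells and 4 were called higher in nsSCs by limma, beside 31% and 35.4% of all tested genes. lhfp was at 3.33 ± 0.384 RPKM in hair cells against 109 ± 3.84 RPKM in nsSCs (SD, n = 3), a pattern opposite to that of lhfpl5a at a like level. lhfpl2a was at 6.43 ± 1.86 and 19.3 ± 2.05 RPKM. lhfpl2b, with nsSC values of 7.20, 8.30 and 6.86 RPKM, was listed at 0 in hair cells. lhfpl4b, the fourth, had nsSC values of 0.28, 0.53 and 0.35 RPKM, was listed at 0 in hair cells, and fell short of 2-fold with a pseudocount of 1 RPKM. lhfpl3 was at 1.72 ± 0.224 and 2.04 ± 0.376 RPKM, and its samples overlapped. cib1, a widely expressed relative of cib2, was at 64.7 ± 2.07 and 50.3 ± 0.348 RPKM and was not called, with a log2 fold change of 0.36.

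**Figure D4:**
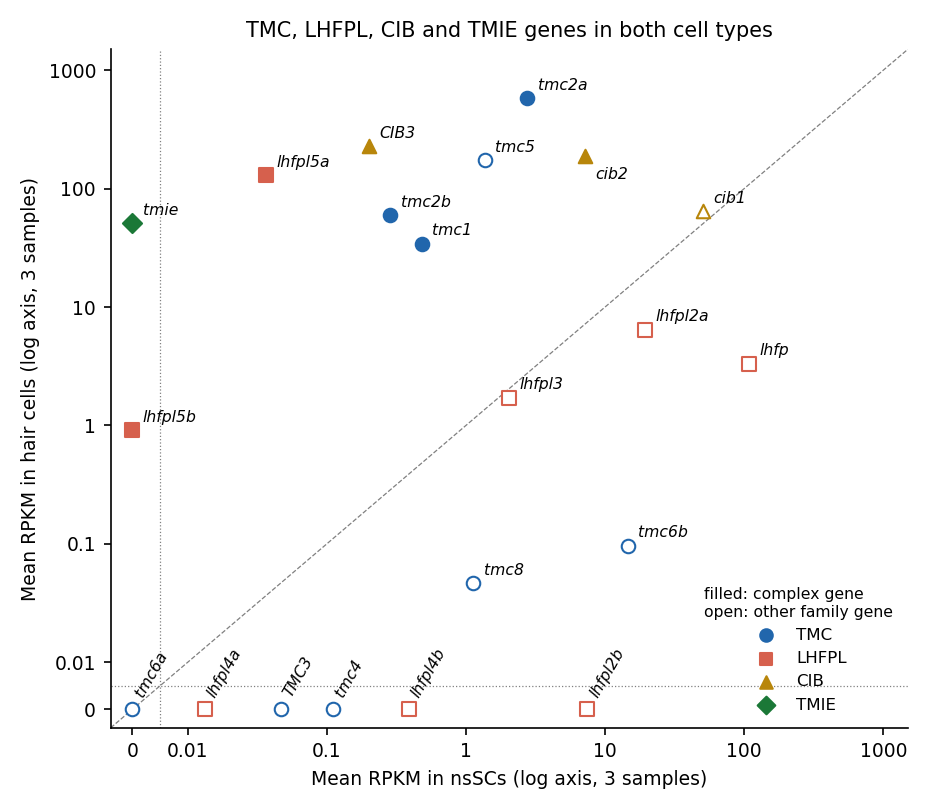
Mean RPKM in nsSCs (x axis) against mean RPKM in hair cells (y axis) of the TMC, LHFPL, CIB and TMIE genes on log axes, with the genes of the complex filled, equal levels on the dashed line and values of 0 beyond the dotted lines. Of the open symbols only tmc5, at 173 RPKM in hair cells, lies among the filled ones, and cib1 lies near the dashed line.

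Genes of the tip link and of proteins that accompany the transduction complex moved with it in most cases. Of 24 such genes, 20 passed the call toward hair cells and 2 toward nsSCs, against 31% and 35.4% of all tested genes, and the median log2 fold change was 6.14. With a pseudocount of 1 RPKM, myo7ab (log2 fold change -0.78) and pkhd1l1 (0.82) fell short of 2-fold. The 20 include the tip link cadherin genes: cdh23 was at 27.7 ± 1.56 RPKM in hair cells under one of its 2 identifiers and 1.22 ± 0.214 RPKM under the other, pcdh15b was at 16.3 ± 3.9 RPKM, and pcdh15a was at 1.88 ± 0.0814 RPKM (SD, n = 3). These were below the levels of tmc2a, CIB3, cib2, lhfpl5a, tmc2b, tmie and tmc1. The highest of the list were GRXCR1, a gene for a glutaredoxin-like protein of the bundle, at 243 ± 18.2 RPKM, and the kinocilin gene kncn, listed as si:dkey-225f23.3, at 233 ± 9.57 RPKM. ush1c, which encodes the scaffold protein harmonin, followed at 147 ± 1.68 RPKM and GRXCR2 at 136 ± 6.4 RPKM. The genes of this list that were higher in nsSCs encode myosins, namely myo1cb, at 0.133 ± 0.0379 and 3.20 ± 0.376 RPKM, and myo7ab, at 0.0733 ± 0.0208 and 0.853 ± 0.212 RPKM. The paralog myo7aa went the other way and was called higher in hair cells, at 6.61 ± 1.01 and 0.0167 ± 0.00577 RPKM. myo1ca, at 19.3 ± 1.33 and 31.5 ± 0.916 RPKM, and gopc, at 14.1 ± 1.04 and 9.22 ± 0.57 RPKM, were not called. With median-ratio scaling or mitochondrial genes out myo1ca was called higher in nsSCs, and with each sample scaled to the same total RPKM gopc was called higher in hair cells.

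Genes of other mechanically gated channels were low in both cell types. Of 4 tested, 1 was called higher in hair cells, a share near the 31% of all tested genes. It was tmem63ba, with 6.88 ± 0.88 RPKM against 0.597 ± 0.0551 RPKM (SD, n = 3). The Piezo channel gene piezo2a.2 was at 1.38 ± 0.0929 and 1.26 ± 0.139 RPKM and its samples overlapped. piezo1 was at 0.26 ± 0.0656 and 0.593 ± 0.101 RPKM and was not called, but it was called higher in nsSCs with median-ratio scaling, with mitochondrial genes out, with a pseudocount of 0.01 RPKM, and without hair cell replicate 1 (log2 fold change -1.09) or nsSC replicate 1 (-1.05). tmem63a was not called either, at 0.713 ± 0.181 and 1.04 ± 0.0839 RPKM.

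The neighbours of the genes in the genome were read from the gene order of RefSeq on the assembly GRCz12tu, another build than that of the files. tmc2b and tmc1 lie side by side there, and the genes that flank the pair differed between the cell types by 2.14 and 1.23 times. cyp1d1, a cytochrome P450 gene beside tmc2b, had 12.7 ± 1.58 RPKM in hair cells against 5.93 ± 0.71 RPKM in nsSCs (SD, n = 3), and zfand5a, beside tmc1, had 35.7 ± 1.99 and 29.0 ± 1.21 RPKM. tmc2a lies next to pcsk5a, a gene for a proprotein convertase, which was at 79.2 ± 2.7 and 0.0567 ± 0.0416 RPKM. srek1, on its other side, was at 26.0 ± 1.75 and 4.23 ± 0.794 RPKM. Near tmie and cib2, higd1a (758 ± 49.5 and 708 ± 51.6 RPKM) and idh3a (165 ± 3.22 and 156 ± 3.49 RPKM) were not called. There ccdc13, tbc1d2b, hic1l and lrrc61 were called higher in hair cells. Near the TMC genes cyp1d1, srek1 and pcsk5a were called higher in hair cells, gda was called higher in nsSCs, and zfand5a and prune2 were not called. Over all tested genes 31% were called higher in hair cells and 35.4% higher in nsSCs. Near CIB3, rab8a was not called, and tpm4b was higher in nsSCs, at 0.56 ± 0.165 and 11.3 ± 0.736 RPKM.

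lhfpl5a and lhfpl5b lie in like surroundings, each with an srpk1, a mapk14 and a cpne5 gene among the nearest genes. srpk1b and srpk1a, which encode splicing factor kinases, were at 20.3 ± 0.914 and 29.6 ± 1.24 RPKM in hair cells (SD, n = 3). The kinase genes mapk14b and mapk14a were at 23.7 ± 1.06 and 21.8 ± 0.354 RPKM. The copine genes cpne5b and cpne5a were low in hair cells, at 0.36 to 0.57 RPKM and at 0 to 0.01 RPKM. The copies of srpk1 and mapk14 thus lay closer together in hair cells than lhfpl5a and lhfpl5b. In contrast, cpne5b, the copy near lhfpl5a with kif21b between them, was above cpne5a in each hair cell sample. srpk1b, srpk1a, mapk14b and cpne5b were called higher in hair cells, beside 31% of all tested genes. mapk14a and kif21b, another neighbour of lhfpl5a, were not called, and cpne5a was too low to be tested.

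In that annotation 6 of the 8 genes overlap another gene, and reads that fall in such a stretch cannot be told apart unless strand is used, which the sources used here do not state. tmc1 overlaps zfand5a, which was at 28.24 to 30.37 RPKM in nsSCs, where tmc1 was at 0.42 to 0.51 RPKM. cib2 overlaps lrrc61, at 0.13 to 0.33 RPKM in nsSCs, below cib2 itself. CIB3 overlaps rab8a, at 7.48 to 8.60 RPKM in nsSCs, where CIB3 was at 0 to 0.45 RPKM. lhfpl5b overlaps cpne5a, at 0 to 0.01 RPKM in hair cells and 0.03 to 0.09 RPKM in nsSCs. tmie overlaps an unnamed protein-coding gene and lhfpl5a an unnamed long non-coding RNA gene, for which no values are given here. The part of the overlaps in the values was not tested. None of the 8 genes had the same 6 values as another gene of the table.

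The genes most like each member were found by the Euclidean distance over the 6 samples on log2(RPKM + 0.1), which mainly compares the level in either cell type. Other members, and genes whose names hold a colon or a point or look like clone identifiers, were left out of this search. A gene left out may lie nearer than those named. For tmc2a the nearest was zdhhc16b, a palmitoyltransferase gene, at a distance of 0.30, with 567 ± 10.9 RPKM in hair cells against 2.59 ± 0.329 RPKM in nsSCs (SD, n = 3), followed by osbpl1a (0.58) and eef1a1b (0.77). For tmc2b they were the potassium channel genes kcnd1 (0.55) and kcng4a (0.60) and the bundle gene grxcr1, another entry than GRXCR1 (0.57), and for tmc1 xk (0.43), sulf2a (0.45) and spata4 (0.45). For cib2 they were eya1 (0.44), trim3b (0.47) and pax2a (0.58). eya1 and pax2a encode transcriptional regulators of ear development. For lhfpl5a they were fam188b2 (0.39), enkur (0.40) and sh2d4bb (0.72), and for tmie the potassium channel gene kcnj12a (0.07), rsph14 (0.17) and ankrd45 (0.23), all 3 of which were also listed at 0 in every nsSC sample. The nearest genes of CIB3 lay farther off than those of the other members, with plcd4a, a phospholipase C gene, at 1.89 and erich3 at 1.94. CIB3 had 0.15, 0.45 and 0 RPKM in the nsSC samples, and on this scale a spread near 0 weighs heavily. Its part in these distances was not tested. lhfpl5b was nearest to inhbab (0.29), ankrd13b (0.31) and dlgap1b (0.35).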

How the data were processed

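The authors generated cDNA with a SMART-Seq low-input kit, mapped the paired-end reads to GRCz10 in CLC Genomics Workbench and deposited RPKM per gene for each sample, with 2 decimals. HTSeq count is also named in their methods, and versions are not given in the sources used here. The table has 35919 entries, of which 31701 are genes measured in all 6 samples. RPKM hold no counts, so that the number of reads behind a value is not known from the table and no counting interval is given.

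The test was limma 3.58.1 (R 4.3.3, statmod 1.5.0) applied to log2(RPKM + 0.1) of the 22374 genes whose mean reached 0.1 RPKM in at least one cell type. The contrast was hair cells minus nsSCs, with trended and robust moderation and Benjamini-Hochberg adjustment over all these genes. The labels number biological replicates without naming the fish, so that p-values measure the spread between these samples. Alternatives changed the pseudocount, filter, fold minimum, scaling, moderation, pairing, samples and test. Lists were matched by the symbol in the table, or otherwise by the reference name of the identifier, and unmatched names are not analysed here.

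The members and lists were chosen with earlier results of these data known. Named genes are the members, up to 4 called genes in each direction and 2 others of each family or pathway list by level, the 3 nearest genes of each member (1 of them is not reported here), and the markers with extreme nsSC shares. cdh23, pcdh15a, pcdh15b, pkhd1l1, myo7aa, piezo1, tmc6a, the other markers and the genome neighbours were named after their values were seen. Ratios and plots used Python 3.11.15, pandas 2.3.3, numpy 2.4.6, scipy 1.17.1 and matplotlib 3.10.9. Protein and promoter sequences are not used here.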

Additional observations from a re-analysis of the deposited data

How the results depend on the processing

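The 8 genes were called higher in hair cells under 16 of 18 alternative settings, and 7 were with a pseudocount of 1 RPKM, where lhfpl5b fell short of 2-fold, and with a filter of 1 RPKM, where it was not tested. The other 7 genes kept their call and direction in each of 15 refits, with log2 fold changes from 4.21 to 5.17 for cib2 and from 7.19 to 8.14 for tmc2a. For genes near 0 in nsSCs the size depended on the pseudocount, at 5.70 to 12.32 for tmie and 6.97 to 11.52 for lhfpl5a. The size for CIB3 likewise ran from 7.59 to 11.3. Leaving out 1 sample at a time gave 8 called genes each time, and 9.26 to 10.49 for CIB3. Over all genes, 6808 to 7028 calls then went toward hair cells and 7800 to 7915 toward nsSCs. The shares of tmc2a, tmc2b and tmc1 stayed within 85.76% to 86.30%, 8.65% to 9.14% and 5.05% to 5.14%, and the 7 neighbouring pairs stayed separate, also under 3 scalings tried after seeing the data. Genes called higher in nsSCs numbered 7917, but 4516 with a pseudocount of 1 RPKM and 5046 with a filter of 1 RPKM. Genes called higher in hair cells numbered 6929, but 4008 at a 4-fold minimum. Median-ratio scaling moved the median log2 fold change of all genes from 0 to -0.48, with 5471 calls toward hair cells and 9093 toward nsSCs, and scaling to the same total RPKM moved it to 0.49, with 8756 and 7024. With mitochondrial genes out it was -0.36, with 5748 and 8739. Same-numbered samples did not deviate together (correlations of -0.047, 0.023 and 0.001), and a replicate block gave 8 called genes of the complex, with 6953 calls toward hair cells and 7934 toward nsSCs.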
